A study of Homo sapiens with 6 samples.

Results

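The mitochondrial ribosome translates the few proteins encoded by mitochondrial DNA, all of them subunits of the oxidative phosphorylation complexes. Its protein components are encoded in the nucleus by the MRPL genes (large subunit) and MRPS genes (small subunit), translated in the cytosol and imported, and its rRNAs are transcribed inside the organelle. Some of these proteins descend from the bacterial ribosome and others were gained by mitochondria. To find out how their mRNAs stood after a DNA-damaging drug, every gene of the deposited table whose symbol was MRPL or MRPS followed by a number and at most a letter A, B or C was taken. This gave 78 of 27942 genes, without pseudogenes, and all 78 were among the 13727 genes tested.

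The cells were HCT116, an established human colorectal carcinoma line that carries wild-type p53 and mutated CTNNB1, grown in RPMI medium with bovine serum. One group received oxaliplatin, a platinum compound that forms DNA adducts, at 0.5 µM for 24 h (OXA). The other was untreated (NT). Each group had 3 libraries, made from polyadenylated RNA with a stranded kit, numbered 1 to 3 in the labels. A single cell line at a single dose and time was measured, so the values describe this line alone.

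Library totals lay between 32979521 and 40967880 counts, and a member had between 86 and 9610 raw counts in a library. As a check of the treatment labels, 6 of 6 targets of p53 rose in OXA, by log2 fold changes between 1.42 and 2.93. The 7 colon epithelial markers all passed the filter on low counts, with summed raw counts of 69778 to 92591 in NT and 94255 to 113788 in OXA. Every OXA sum was above every NT sum, which followed the keratin genes KRT8 and KRT18, the most abundant of the 7 (log2 fold changes 0.47 and 0.31). Of the 7 markers 4 had estimates below 0, which were -0.20 for CDH1, -0.48 for KRT20, -0.38 for VIL1 and -0.040 for EPCAM, the last also being the list's median. Without a block for the replicate number, described with the results, none of the 7 was called by edgeR, and with it KRT8 and KRT18 were called higher and CDH1 lower. The part of these shifts in the results was not tested. The intestinal markers KRT20 and VIL1 were low, at 28.1 to 55.7 and 42.2 to 97.1 normalized counts, and EPCAM had between 9083 and 11069. Of 10 markers of other cell types, 3 passed (CD68, COL1A1 and VWF), with sums over the 10 between 286 and 504 counts in NT and between 418 and 465 in OXA. Of the leukocyte marker PTPRC there were at most 2 counts in a library, and the fibroblast marker DCN was at 0 in all 6. Library NT1 stood apart from NT2 and NT3 for the members, in a way that followed GC content and is described with the results. Unless another unit is named, values are TMM-normalized counts, which are raw counts scaled by 1 factor per library, and fold changes are OXA over NT. As these are bulk libraries, fewer cells of a type and less RNA per cell cannot be told apart.

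Nuclear genes for mitochondrial proteins are known as targets of the transcription factors NRF1 and GABPA, an ETS factor. The words that stand for their sites were therefore looked up in the promoters of the members, a feature that the choice by symbol did not use. RefSeq windows from 250 bases before to 50 bases after the start were at hand for 69 of the 78 members and for 27305 genes in all (GRCh38.p14). The following 60-base stretches lie upstream of the start and outside annotated exons. They were chosen to show each word in genes whose values are described in the results, and capitals mark the ETS word CCGGAAG or the NRF1 word, which is GCGC, any base and TGCGC, on either strand.
MRPL20 (chr1:1407304-1407363, minus strand): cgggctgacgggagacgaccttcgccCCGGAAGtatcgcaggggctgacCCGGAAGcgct
MRPS9 (chr2:105038004-105038063, plus strand): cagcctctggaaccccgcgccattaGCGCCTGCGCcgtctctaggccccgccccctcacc
MRPL45 (chr17:38296954-38297013, plus strand): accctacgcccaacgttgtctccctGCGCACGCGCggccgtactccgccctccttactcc
MRPL48 (chr11:73787785-73787844, plus strand): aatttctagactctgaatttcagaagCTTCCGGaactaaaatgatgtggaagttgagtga

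The ETS word CCGGAAG was found in 29 of the 69 member promoters (42.0%) and in 10.7% of all promoters. All promoters here include those of genes outside the genes tested, whereas every member was tested. AAGATGGC, the word of the factor YY1, was found in 20 (29.0%, against 3.03% of all), and no ETS word of a member overlapped a YY1 word. The NRF1 word was found in 8 (11.6%, against 6.28%). The SP1 word GGGCGG was found in 42 (60.9%, against 44.6%), the E-box CACGTG in 6 (8.70%, against 7.43%) and TATAAA in 2 (2.90%), where 3264 of all promoters held it. ETS, NRF1 or YY1 words were thus present in 45 of the 69, a count that was not made over all promoters. All the words found are matches of letters on both strands and not measured binding. The members with and without an ETS word had median log2 fold changes of 0.18 and 0.18, those with and without a YY1 word 0.20 and 0.16, and those with and without the SP1 word 0.21 and 0.14. None of these differences was tested.

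Levels differed more between members than between conditions. On a scale of normalized counts per kilobase of the canonical transcript, scaled to a common total in each library, the members ran from 15.2 to 326 in NT, a 21.4-fold range, with a median of 95.6 against 16.2 over all genes tested. MRPL51 was highest, at 326 ± 22.4 in NT and 347 ± 20.8 in OXA (SD, n = 3). MRPL3, the homologue of a bacterial protein close to the peptidyl transferase centre, followed with 247 ± 41.9 and 250 ± 23.9, and the small-subunit protein gene MRPS18B with 229 ± 19.7 and 239 ± 16.7. MRPL12, which encodes the stalk protein, had 221 ± 49.7 in NT and 233 ± 26.2 in OXA. The levels of MRPL3, MRPS18B and MRPL12 lay within the library spread of each other.

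At the other end of the same scale, MRPS25 had 15.2 ± 0.93 in NT and 14.5 ± 0.31 in OXA, MRPS11 had 17.7 ± 2.41 and 18.4 ± 2.36, and MRPL42 had 18.99 ± 2.08 and 20.05 ± 1.26. The place of MRPL42 rests on a canonical transcript of 15557 nt, the longest among the members, and its 4601 normalized counts in NT were above the members' median of 1745. The order of the members was nearly the same in both conditions (Spearman 0.99 across the 78 genes, which share their libraries and their transcript lengths). The members' transcripts had a median length of 1242 nt, against 3261 nt over all genes tested, and a median GC content of 48.2%, against 48.8%. Their genes lie on 21 chromosomes.

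Together the members took 0.491%, 0.480% and 0.487% of the counts of NT libraries 1 to 3 and 0.533%, 0.520% and 0.534% of those of OXA libraries 1 to 3. Every OXA library was above every NT library. In normalized counts the sums were 172479 ± 2709 in NT and 193079 ± 5279 in OXA (SD, n = 3), a ratio of 1.12. The sum over large-subunit members divided by that over small-subunit members lay between 1.75 and 1.82 in all 6 libraries, with 1.80, 1.82 and 1.75 in NT libraries 1 to 3 and 1.81, 1.81 and 1.78 in OXA libraries 1 to 3, so this ratio overlapped between the groups.

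**Figure D1:**
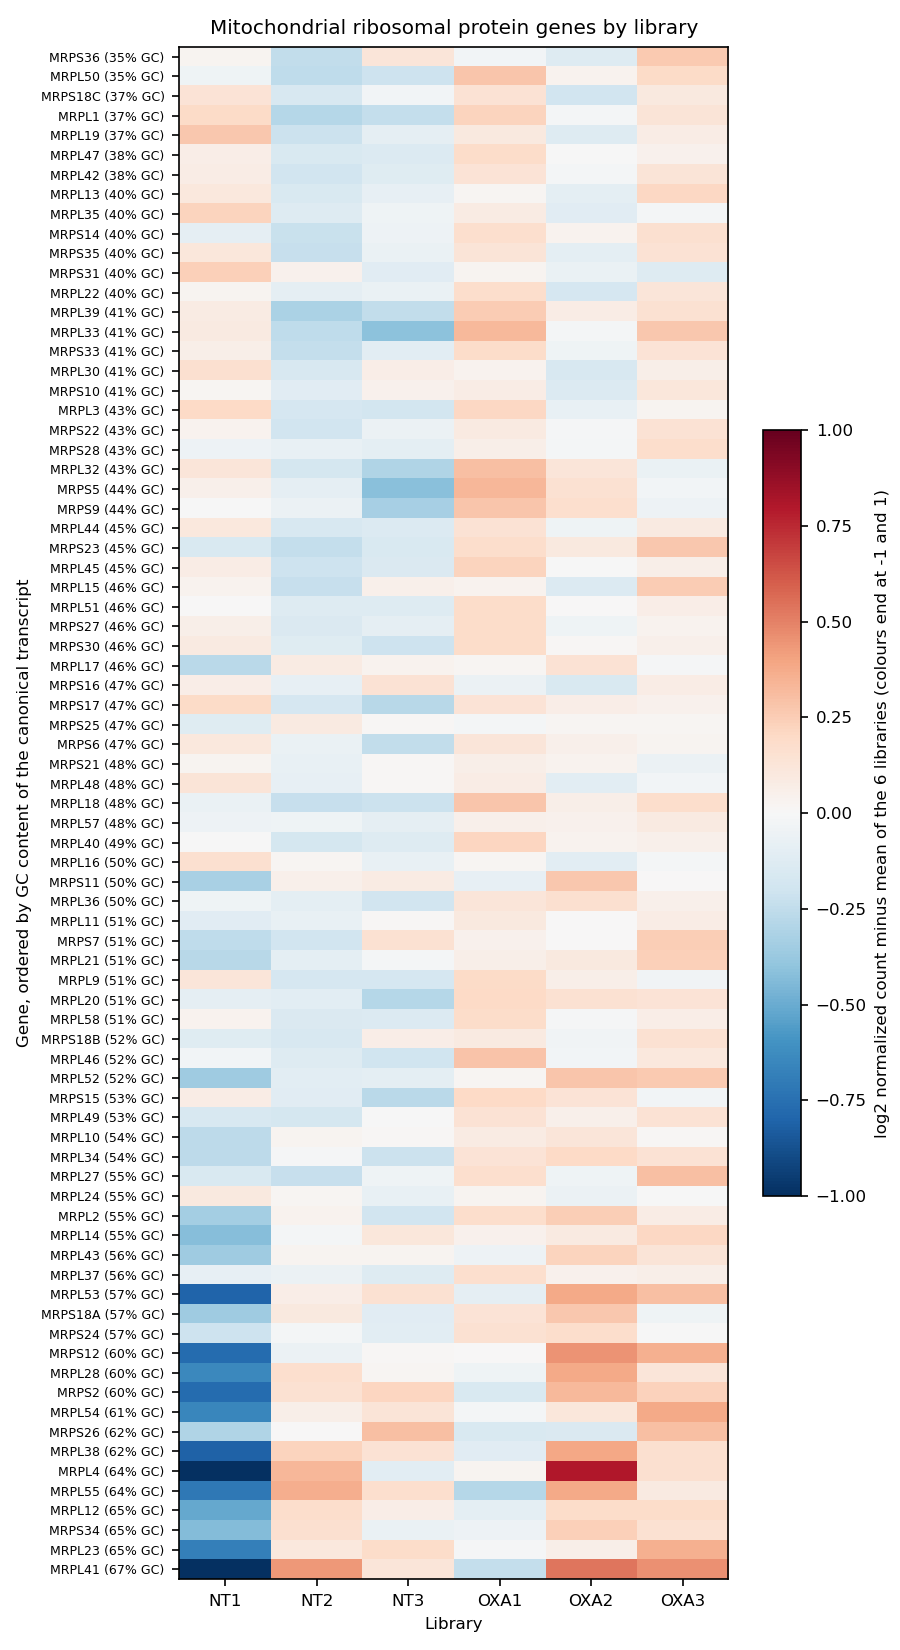
Heat map of the 78 mitochondrial ribosomal protein genes (rows, ordered by GC content of the canonical transcript) in the 6 libraries (columns), with colour for the log2 normalized count minus the gene's mean over the 6 libraries. Low-GC genes are mostly blue in NT2 and NT3 and red in OXA1 and OXA3, and the genes of highest GC, at the bottom, are dark blue in NT1.

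Gene by gene, the estimates lay mostly above 0 and were small. Of the 78 members, 70 had a log2 fold change above 0, against 53.3% of all genes tested, and 67 lay above the median of all genes, which was 0.023. The members' median was 0.17, equal to a fold of 1.13, and they ran from -0.12 for MRPS31 to 0.56 for MRPL4. None passed the test: 0 were higher and 0 lower at an adjusted p under 0.05 by edgeR's quasi-likelihood test, while 2.78% of all genes were called higher and 2.29% lower. At an unadjusted p under 0.05 the numbers were 14 higher (background 10.7%) and 0 lower (background 11.1%). DESeq2 called 1 member higher, MRPS23, where it called 4.63% of all genes, and limma-voom called 0 (background 2.73%). No member was called with a fold change over 1.5 (background 1.97% higher and 1.44% lower).

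The groups did not overlap for 17 members, all with OXA above NT, which 14.5% of all genes did, and for 0 with OXA below NT (14.4% of all genes). In 71 members the lowest of the 6 libraries was an NT library, and in 68 the highest was an OXA library. These counts were made for the members only, so no share of all genes stands beside them. Libraries with the same number deviated together, and for the members this was marked: the correlation across the 78 genes of the deviations from the group means was 0.93, 0.89 and 0.59 for the pairs numbered 1, 2 and 3, and between -0.84 and 0.43 for libraries of different numbers. Comparing each OXA library with the NT library of its number, the median log2 ratio of the members was 0.20, 0.13 and 0.19 in pairs 1 to 3. Higher values in OXA were found for 67, 67 and 70 members in these pairs. Over the 13727 genes tested, the median log2 ratios were 0.071, 0.00062 and 0.0053 in pairs 1 to 3. Of these genes, 7803, 6875 and 6982 had higher values in OXA. All 3 pairs were higher for 57 members (33.8% of all genes) and lower for 3, MRPS31, MRPS16 and MRPL48 (27.6% of all genes).

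When edgeR's model held a block for each replicate number, 18 members were called higher, where 12.1% of all genes were, and 0 lower, where 10.9% were. Their log2 fold changes in that fit lay between 0.18 and 0.54 and their adjusted p between 0.0080 and 0.049, 0 with a fold over 1.5 (background 3.85%). All 18 were higher in each of the 3 pairs. The block fit rests on these same pair differences, so this follows closely from the calls and adds nothing to them. Of the 18, 12 belong to the large subunit (MRPL2, MRPL18, MRPL20, MRPL21, MRPL27, MRPL32, MRPL34, MRPL39, MRPL45, MRPL49, MRPL50 and MRPL52) and 6 to the small subunit (MRPS5, MRPS9, MRPS12, MRPS14, MRPS15 and MRPS23). In 10 of them the groups did not overlap, a count that was not made over all genes called by that fit. The block lowered the members' median standard error from 0.12 to 0.065 and their median log2 fold change was 0.18, against 0.17 without it. The count depended on the pairs: the block fit called 46 members higher without pair 1 (background 21.2%), 3 without pair 2 (background 6.95%) and 9 without pair 3 (background 13.7%). It called 0 lower each time, against 20.2%, 4.89% and 8.66% of all genes. These smaller fits had 4 libraries and were chosen after the data had been seen, as was the block with the authors' factors per gene, which called 12 members higher (background 9.61%), 10 of them among the 18.

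**Figure D2:**
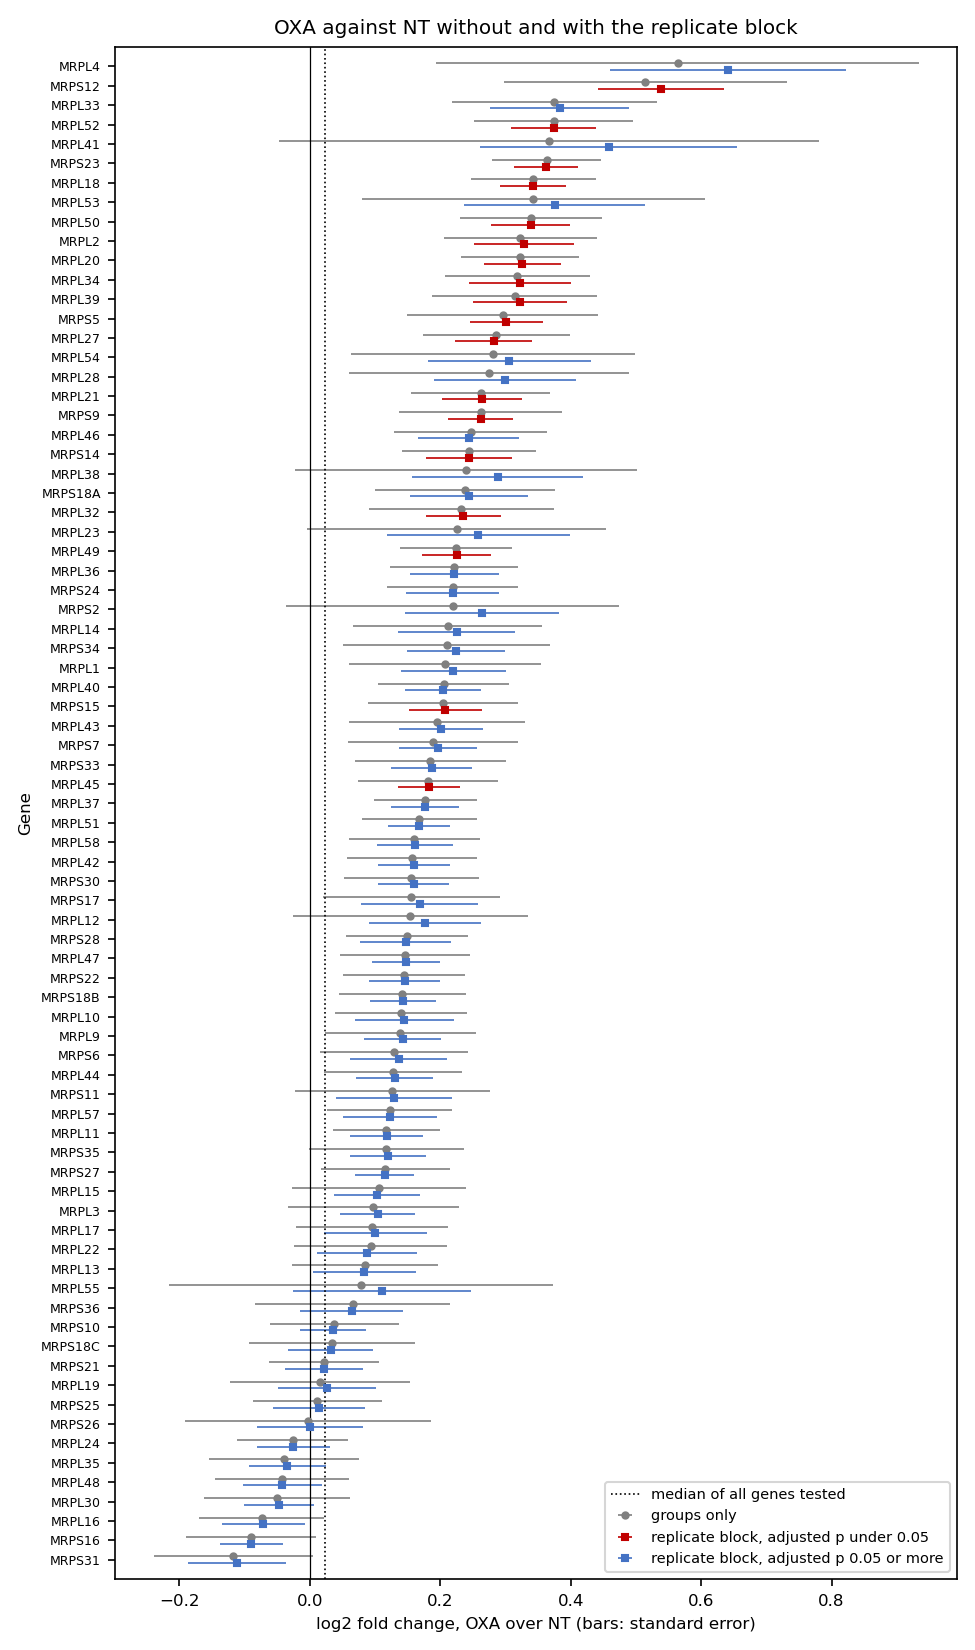
Log2 fold change, OXA over NT, with its standard error for each of the 78 genes, from the edgeR fit on groups only (grey circles) and on groups plus replicate number (the block, squares, red where the adjusted p was under 0.05). The estimates of both fits lie close together, the bars are shorter with the block, and 18 genes are red.

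MRPS23, a small-subunit protein specific to mitochondria (chromosome 17, 57834781 to 57850056, GRCh38), came closest to the threshold without the block. It had 5345, 5051 and 5339 normalized counts in NT and 6730, 6343 and 7164 in OXA. All OXA libraries were above all NT libraries (log2 fold change 0.36 ± 0.084 SE, edgeR adjusted p = 0.053, with the block 0.0080). It was also called without NT1 (edgeR adjusted p = 0.038) and by DESeq2 (adjusted p = 0.013).

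MRPL18, the homologue of a bacterial protein that binds 5S rRNA, had 2919, 2601 and 2639 normalized counts in NT and 3715, 3178 and 3454 in OXA. MRPL20, whose promoter carries a pair of ETS words in the stretch shown above, had 2167, 2139 and 1888 in NT and 2649, 2562 and 2537 in OXA. In both genes the groups were apart. The log2 fold changes were 0.34 for MRPL18 and 0.32 for MRPL20, and the edgeR adjusted p of 0.086 for each became 0.0098 and 0.017 with the block.

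MRPL50 and MRPL52 encode large-subunit proteins specific to mitochondria. MRPL50 had 1448, 1245 and 1287 normalized counts in NT and 1807, 1528 and 1698 in OXA, and MRPL52 had 783, 931 and 934 in NT and 1017, 1215 and 1199 in OXA. The groups were apart for both, at log2 fold changes of 0.34 and 0.37 (edgeR adjusted p = 0.12 and 0.13, with the block 0.016 and 0.015). For MRPL52 the 3 pairs gave nearly 1 value, with log2 ratios of 0.38, 0.38 and 0.36.

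MRPS5 and MRPS9, which descend from bacterial small-subunit proteins, were called with the block although their groups overlapped. MRPS9, with the NRF1 word shown above, had 2795, 2692 and 2231 normalized counts in NT and 3393, 3152 and 2709 in OXA. MRPS5 had 2750, 2495 and 1980 in NT and 3332, 2944 and 2593 in OXA. In each gene the OXA3 value was below the NT1 value, while each OXA library was above the NT library of its number, and the log2 fold changes of 0.26 and 0.30 had edgeR adjusted p-values of 0.27 and 0.29 without the block and 0.019 and 0.018 with it. MRPL45, whose protein lies where the ribosome meets the inner membrane, had 4522, 3729 and 3887 in NT and 5007, 4284 and 4466 in OXA (log2 fold change 0.18, edgeR adjusted p = 0.38, with the block 0.044).

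The 2 largest estimates, those of MRPL4 and MRPS12, and that of MRPL41 belonged to members of high GC content with standard errors of 0.22 to 0.41. MRPL4, which descends from a bacterial protein lining the exit tunnel, had 646, 1888 and 1389 normalized counts in NT and 1524, 2601 and 1675 in OXA, with NT1 far below the other libraries. Its log2 fold change was 0.24 without NT1 and 0.29 without OXA2. With all libraries it was 0.56 with a standard error of 0.37 (edgeR adjusted p = 0.43, with the block 0.053). MRPS12, the homologue of a protein of the bacterial decoding centre, had 630, 1029 and 1083 in NT and 1078, 1464 and 1376 in OXA, and NT3 lay just above OXA1. At a log2 fold change of 0.51, it had an edgeR adjusted p of 0.22 without and 0.016 with the block. MRPL41, a large-subunit protein specific to mitochondria, was the least counted member, with 88, 295 and 236 in NT and 185, 315 and 298 in OXA. Its log2 fold change was 0.37 with a standard error of 0.41 (edgeR adjusted p = 0.66, with the block 0.14), and its pairs ranged from 0.094 to 1.07.

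MRPL33 had a low GC content and a large estimate as well. It had 1316, 1033 and 927 normalized counts in NT and 1542, 1219 and 1485 in OXA (log2 fold change 0.37 ± 0.16 SE, edgeR adjusted p = 0.22, with the block 0.051). It was called without NT1 (log2 fold change 0.53, edgeR adjusted p = 0.035).

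The 6 smallest estimates were all below 0, and none passed the test in either fit. MRPS31, which is specific to mitochondria, had 1054, 923 and 824 normalized counts in NT and 911, 854 and 817 in OXA (log2 fold change -0.12 ± 0.12 SE, edgeR adjusted p = 0.63). MRPS16, a homologue of a bacterial protein, had 3755, 3383 and 3967 in NT and 3445, 3225 and 3761 in OXA (log2 fold change -0.090, edgeR adjusted p = 0.66). The groups overlapped for both. MRPL16, MRPL30, MRPL48 and MRPL35 had log2 fold changes of -0.074, -0.050, -0.043 and -0.040, each smaller than its standard error of 0.096 to 0.12. The signs of MRPL30, MRPL48 and MRPL35 turned when NT1 was left out. MRPL48, whose promoter holds an ETS word in the stretch shown above, had 1474, 1270 and 1356 in NT and 1414, 1247 and 1320 in OXA.

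By role, the medians of the log2 fold changes lay near each other. The 30 large-subunit proteins with bacterial homologues had a median of 0.15 with 26 above 0, and the 21 that are specific to mitochondria a median of 0.21 with 20 above 0. Among small-subunit proteins the 16 bacterial homologues had a median of 0.17 with 15 above 0, and the 10 mitochondria-specific ones 0.13 with 8 above 0. With the block, 7, 5, 5 and 1 members of these 4 groups were called higher, and none lower, against the 12.1% of all genes called higher.

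Some members have a place or a function that the symbol does not tell, and none of them passed the test in either fit. MRPS18A, MRPS18B and MRPS18C encode related proteins, of which MRPS18A sits in the large subunit. Their log2 fold changes were 0.24, 0.14 and 0.034, and MRPS18A had 1613, 2212 and 1904 normalized counts in NT and 2268, 2484 and 2006 in OXA. MRPS30, also in the large subunit despite its name, had 4002, 3469 and 3265 in NT and 4271, 3794 and 3895 in OXA (log2 fold change 0.16, edgeR adjusted p = 0.44, with the block 0.089). MRPL58, a peptidyl-tRNA hydrolase that frees stalled ribosomes, had 1620, 1431 and 1438 in NT and 1790, 1570 and 1658 in OXA (log2 fold change 0.16, edgeR adjusted p = 0.41). MRPL12 had 2540, 4097 and 3800 in NT and 3389, 4114 and 4113 in OXA, at a log2 fold change of 0.15 that turned to -0.12 once trends with GC content and length were removed. MRPS36, whose product is now known as a subunit of the 2-oxoglutarate dehydrogenase complex rather than of the ribosome, had 767, 634 and 818 in NT and 736, 686 and 900 in OXA (log2 fold change 0.066, edgeR adjusted p = 0.84).

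The distance of NT1 from NT2 and NT3 followed GC content. Across the 78 members, the log2 difference of NT1 from the mean of NT2 and NT3 went down with the GC content of the canonical transcript (Pearson -0.82, Spearman -0.78), as it did across 13675 genes tested (Pearson -0.67, Spearman -0.77). These points share their libraries. In the 26 members under 45% GC, NT1 was the highest NT library in 23 and the lowest in 0, with a median difference of 0.23. In the 19 members at 55% GC or more, it was the lowest in 18 and the highest in 0, with a median difference of -0.74. OXA1 differed from OXA2 and OXA3 in the same direction, by a median of 0.13 in the former and -0.27 in the latter members.

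The comparison of the groups moved with this. At 55% GC or more the median log2 ratio was 0.52 in pair 1, 0.17 in pair 2 and 0.11 in pair 3, whereas under 45% GC it was 0.062, 0.14 and 0.22. The members' ratio had a Pearson correlation with GC content of 0.72 in pair 1, 0.034 in pair 2 and -0.18 in pair 3. Each library's trends with GC content and length were then taken out and the block was kept. These trends were fitted over the genes tested, so a treatment difference that follows GC content or length is taken out too. The Pearson correlation of the members' log2 fold change with GC content was 0.40 with the block alone and -0.44 with trends removed as well. Across 13675 genes tested it was 0.26 and 0.0035. With trends removed, the median of the members was 0.098 and 65 were above 0. The medians in that fit were 0.16, 0.098 and 0.031 in the 3 classes of rising GC content (33 members lay between 45% and 55%). Below 0 in that fit but not without it were MRPL12, MRPL23, MRPL54, MRPL55, MRPS21, MRPS24 and MRPS34, at -0.20 to -0.010 and none called. The fit called 30 members higher, where 23.4% of all genes were, and 3 lower (MRPL16, MRPL24 and MRPS26), where 22.1% were, and 15 of its calls were shared with the 18 of the block alone. Without NT1 and without the block, 6 members were called higher (MRPL18, MRPL20, MRPL33, MRPL39, MRPL50 and MRPS23), where 4.49% of all genes were, and 5 of these were among the 18.

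**Figure D3:**
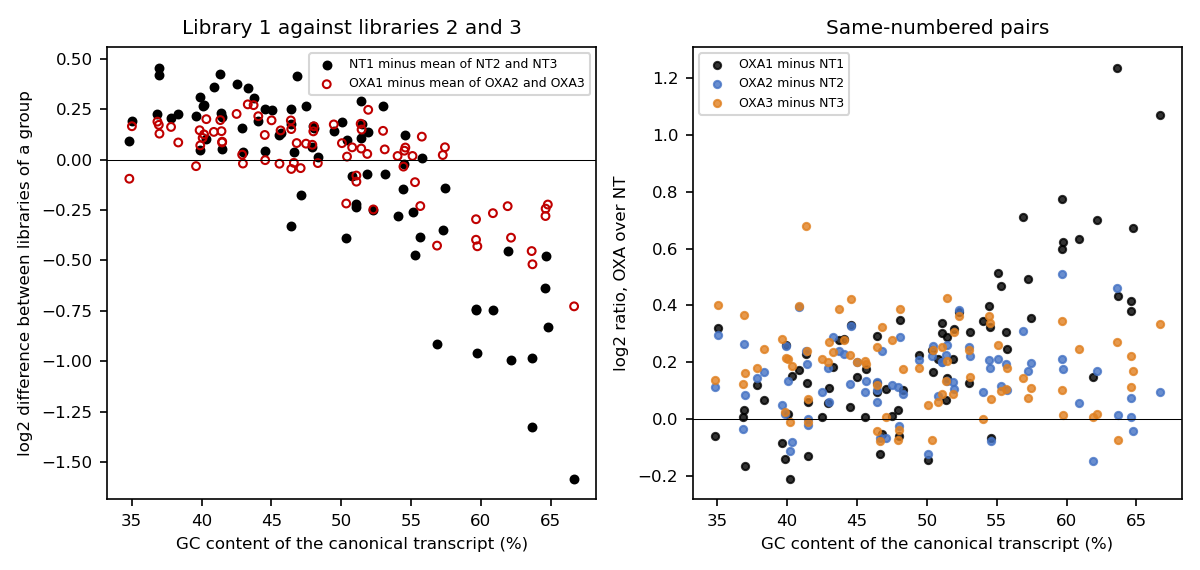
Left, log2 difference of library 1 from the mean of libraries 2 and 3 in NT (filled) and OXA (open) against GC content of the canonical transcript (%) for the 78 genes. Right, log2 ratio of OXA over NT in the 3 same-numbered pairs against GC content. In the left plot both sets descend with GC content, NT further than OXA, and in the right plot pair 1 climbs above pairs 2 and 3 at high GC content.

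Where genes overlap, counts are uncertain, because the strand setting of the counting is not given in the sources used here. Exons of 21 members overlap those of another gene of the table, 9 on the same strand and 12 on the opposite strand. MRPS18C shares 83.6% of its transcript with ABRAXAS1 on the opposite strand, MRPL53 shares 99.2% with CCDC142 and MRPS24 shares 90.9% with a readthrough gene, both on the same strand.

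Starts of neighbours were taken as the outer ends of gene records, which can lie away from the start of the canonical transcript. By these, a start on the opposite strand within 1000 nt was found for 27 members. The gene so paired did not always go the same way. MRPL27 and EME1, whose product belongs to a DNA endonuclease, start 13 nt apart, yet MRPL27 had a log2 fold change of 0.29 (with the block edgeR adjusted p = 0.024) while EME1 fell by 0.49 on the log2 scale (edgeR adjusted p = 0.032). MRPL49 and the ribosomal protein gene FAU start 6 nt apart and had log2 fold changes of 0.22 and 0.51, with block adjusted p-values by edgeR of 0.033 and 0.044. MRPS11 and MRPL46 start 63 nt apart, at 0.13 and 0.25, and neither passed in either fit. MRPL14 had a log2 fold change of 0.21 that was not called, while its neighbour TMEM63B, a membrane channel gene, rose by 1.05 (edgeR adjusted p = 0.012). Of the 25 neighbours tested, 4 were called higher and 4 lower with the block, beside 12.1% and 10.9% of all genes.

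Other genes of mitochondrial translation, transcription and RNA processing were read in the same fits. The list held 56 genes: 5 ribosomal proteins under other symbols, 13 translation factors, 27 genes of ribosome assembly and rRNA modification and 11 of transcription and RNA processing. Of the 56, 0 were called in either direction without the block and 12 higher and 1 lower with it, beside 12.1% and 10.9% of all genes. Their median log2 fold change was 0.12, with 36 of 56 above 0. For comparison, 79 cytosolic ribosomal protein genes had a median of 0.086, with 58 above 0, 0 called higher and 1 lower without the block and 10 higher and 2 lower with it. With trends on GC content and length removed as well, the cytosolic list had a median of 0.0049 with 10 called higher and 19 lower, and the 56 genes a median of 0.085 with 22 called higher and 5 lower, beside 23.4% and 22.1% of all genes.

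The 5 ribosomal proteins under other symbols had a median of 0.22. DAP3, a GTP-binding protein of the small subunit, had 5932, 4873 and 5371 normalized counts in NT and 6559, 5834 and 6336 in OXA (log2 fold change 0.21, edgeR adjusted p = 0.28, with the block 0.033). PTCD3, a small-subunit protein of the pentatricopeptide family, had 0.037, AURKAIP1 0.34 and GADD45GIP1, in the large subunit, 0.57, none of them called in either fit. The last had 495, 1226 and 924 in NT and 1112, 1740 and 1076 in OXA, again with a low NT1.

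Among 13 translation factors the median was 0.051. MTIF2, the initiation factor, had 3399, 2687 and 2371 normalized counts in NT and 3792, 3154 and 3313 in OXA (log2 fold change 0.28, edgeR adjusted p = 0.32, with the block 0.042). The elongation factor gene TUFM stood at 0.31 on this scale (edgeR adjusted p = 0.27, with the block 0.054), the recycling factor gene MRRF -0.078 and GUF1 -0.12, which were not called.

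Among 27 genes of ribosome assembly and rRNA modification the median was 0.066. With the block 4 were called higher and 1 lower, beside 12.1% and 10.9% of all genes. TRUB2, a pseudouridine synthase, had 1794, 2272 and 2260 normalized counts in NT and 2882, 2919 and 2884 in OXA, without overlap (log2 fold change 0.46, edgeR adjusted p = 0.059, with the block 0.015). DESeq2 called it too (adjusted p = 0.0095), as did edgeR without NT1 (adjusted p = 0.035). METTL15, which methylates the small-subunit rRNA, was the 1 called lower, with 2164, 1863 and 2134 in NT and 1702, 1540 and 1697 in OXA, also without overlap (log2 fold change -0.32, edgeR adjusted p = 0.12, with the block 0.016). MPV17L2 had a log2 fold change of 0.47 and MTERF3 of -0.23, neither called in either fit.

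The 11 genes of mitochondrial transcription and RNA processing had a median of 0.20, with 5 called higher by the block fit, beside 12.1% of all genes. TFB2M, a factor for initiation by the mitochondrial RNA polymerase, had 1111, 965 and 1146 normalized counts in NT and 1377, 1240 and 1467 in OXA (log2 fold change 0.34, edgeR adjusted p = 0.13, with the block 0.017). HSD17B10, a subunit of mitochondrial RNase P, had 2101, 2772 and 2755 in NT and 3288, 3482 and 3386 in OXA (log2 fold change 0.41, edgeR adjusted p = 0.097, with the block 0.019). KIAA0391, the symbol in the table of the catalytic subunit PRORP, had -0.25, TFAM, which packages mitochondrial DNA, -0.20, and the polymerase gene POLRMT 0.30, all uncalled in both fits.

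Of 8 regulators of nuclear genes for mitochondria, 7 were tested, with a median of -0.19. GABPB1, which encodes the partner of GABPA, had 1515, 1195 and 1155 normalized counts in NT and 1043, 945 and 956 in OXA. Its groups did not overlap (log2 fold change -0.39, edgeR adjusted p = 0.13, with the block 0.023), and with YY1 (-0.19, with the block edgeR adjusted p = 0.040) it was called lower by the block fit. That fit called 10.9% of all genes lower. NRF1 and GABPA each had a log2 fold change of -0.20 and were not called in either fit (with the block edgeR adjusted p = 0.075 and 0.057). The coactivator gene PPRC1 had 0.017 and ESRRA 0.30, neither called.

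The 13 protein-coding transcripts of the mitochondrial genome made up 2.16% to 3.11% of a library's counts, lowest in NT3 and OXA3. Their median log2 fold change was 0.095. The pairs went different ways, with medians of -0.11, 0.19 and 0.096 and 5, 13 and 9 of the 13 higher in OXA. With trends on GC content and length removed the median turned to -0.059. That fit called 2 of the 13 higher and 3 lower, beside 23.4% and 22.1% of all genes. MT-ND1, a subunit of complex I, had 45731, 43720 and 31406 normalized counts in NT and 50362, 55210 and 37754 in OXA, where each OXA library was above the NT library of its number (log2 fold change 0.25, edgeR adjusted p = 0.50, with the block 0.030). MT-ND6 had 0.21, MT-CO2 -0.060 and MT-CO1 -0.13, none called in either fit. The mitochondrial rRNAs were not found among the genes of the deposited table and so were not analysed.

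**Figure D4:**
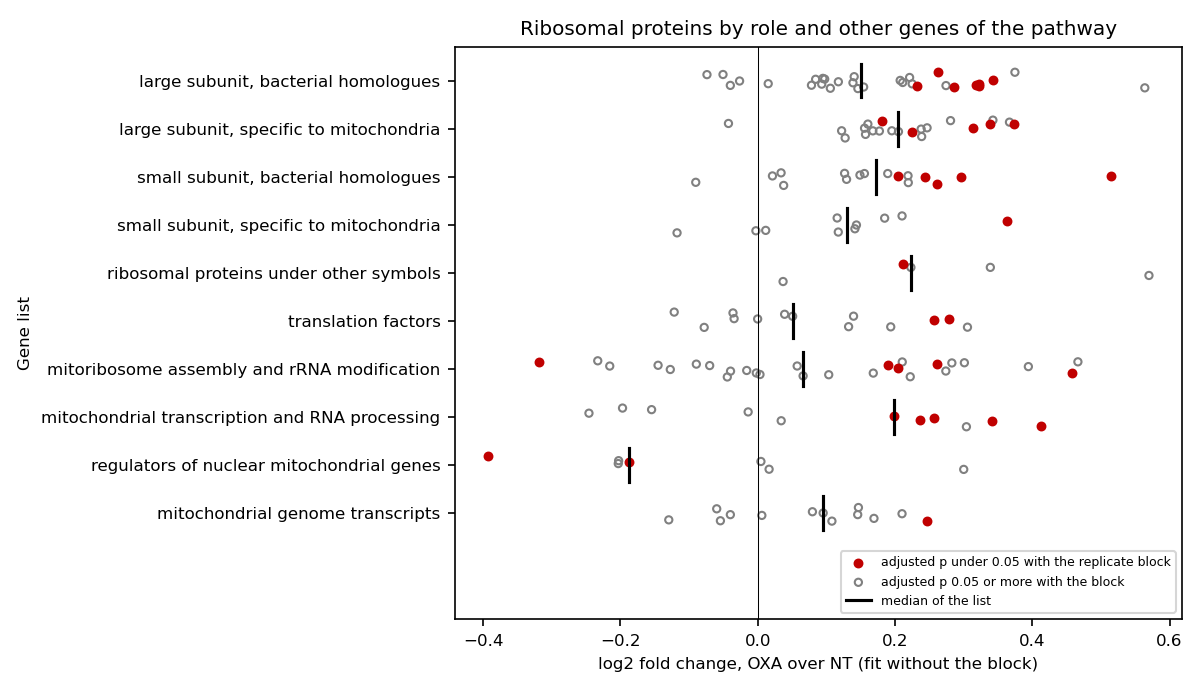
Log2 fold change, OXA over NT, from the fit without the block (horizontal axis) for each gene of the ribosomal protein groups and of the other lists (rows). Filled red points had an adjusted p under 0.05 with the replicate block, and black bars are list medians, which lie between 0.13 and 0.21 for the 4 ribosomal protein groups and at -0.19 for the regulators.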

How the data were processed

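RNA-seq libraries of HCT116 cells were compared, 3 untreated (NT) and 3 treated with 0.5 µM oxaliplatin for 24 h (OXA), with groups and replicate numbers taken from the sample labels. The submitters' processing notes name Trimmomatic 0.32, STAR 2.7.5b, RSEM 1.3.3 and DESeq2 2.13 on GRCh38, without roles. The annotation and the strand setting of the counting are not given in the sources used here. The table deposited by the authors gives raw counts, which are whole numbers and entered the tests unaltered, and normalized values. The normalized signal deposited by the authors is the count times a factor that differs between genes, and it served only for an alternative. The labels give 0.5 µg of total RNA and antibiotics in the medium, from which the paper's methods differ.

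Genes were filtered with filterByExpr (minimum count 10, minimum total count 15), normalized by TMM and tested with edgeR's quasi-likelihood test on the groups alone, with Benjamini-Hochberg adjustment over the 13727 genes tested (R 4.3.3 and edgeR 4.0.16). The alternatives used limma 3.58.1 and DESeq2 1.42.0. A call means an adjusted p under 0.05. The standard error is the log2 fold change divided by the square root of F. Totals of 32979521 to 40967880 counts leave counting error small, and it is a lower limit since PCR duplicates cannot be told apart. The labels do not say whether replicates are separate cultures, so p-values measure the spread between these libraries. Of the steps used, only the edgeR fit, without and with the replicate block, was tried on simulated counts with known changes.

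Libraries with the same replicate number were treated as pairs because of these data, and the labels name no pairing. Across all genes tested, deviations from the group means correlated at 0.55, 0.54 and 0.31 for the same number and between -0.47 and 0.090 for different numbers. The deviations within a group cancel for each gene, so positive values for the same number push the others down. What a number stands for is not stated. The fit with the number as a block is given where it changes a call or a count.

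Lengths and GC content come from the canonical transcripts of GENCODE 44, positions from its gene records, and promoter windows from RefSeq. The members and all lists were chosen with earlier results of these data known, and no list was tested as a set. Named members are those called, the 6 largest and 6 smallest log2 fold changes, the 8 smallest adjusted p with the block, the 3 highest and 3 lowest levels per length, and 8 with a known place or role of their own. In other lists the genes named are the 2 largest and 2 smallest log2 fold changes and POLRMT, TFAM, TUFM, DAP3, NRF1 and GABPA. MRPL24, MRPL45, MRPL46, MRPS26, the members whose sign turned with trends removed, YY1, the epithelial markers described, the members listed as called in other fits, and the neighbours and overlapping genes were named after their values were seen. Alternatives were DESeq2 and upper-quartile factors, the authors' factors per gene, no filter other than at least 1 count, at least 1 CPM in 3 libraries, DESeq2, limma-voom, the replicate block, the block with trends on GC content and length removed, and each library left out. The block without 1 pair and the authors' factors with the block were chosen after seeing the data.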

Additional observations from a re-analysis of the deposited data

How the results depend on the processing

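The sign of the members' median held in every alternative (0.098 to 0.19). It was 0.13 with upper-quartile factors, 0.098 with the replicate block and trends on GC content and length removed, and 0.13 to 0.19 with 1 library left out. The number called depended on the model for the pairs. Against 0 higher, it was 1 with DESeq2, 18 with the replicate block, 12 with the authors' factors per gene and the block, 30 with the block and trends removed, and 46, 3 and 9 with the block without pair 1, 2 and 3. Without single libraries it was 0 to 6, the 6 without NT1. Lower calls numbered 3 with trends removed and 0 in the other alternatives. Of the 56 other genes of mitochondrial translation, transcription and RNA processing, 2 were called higher with DESeq2, 12 with the block and 5 with the authors' factors and the block. The number higher was 22 with trends removed, 23, 5 and 10 without pair 1, 2 and 3, and 0 to 2 without single libraries. Called lower were 1 with the block, 1 with the authors' factors and the block, 5 with trends removed and 5 without pair 1. Of all genes, 4.63% were called higher with DESeq2, 12.1% with the block and 9.61% with the authors' factors and the block. With trends removed the share was 23.4%, and without pair 1, 2 and 3 it was 21.2%, 6.95% and 13.7%. Without single libraries it lay between 0.474% and 4.49%. Lower calls took 10.9% with the block and 8.5% with the authors' factors and the block. They took 22.1% with trends removed and 20.2% without pair 1. The cause of the differences between alternatives was not tested. The blocked fits without a pair have 1 residual degree of freedom per gene before the spread is shared across genes.

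With trends removed, 65 of the 78 members were above 0 instead of 70: 7 turned from above to below 0 and 2 from below to above, none of them called there. Among the genes named by the stated rules, the following signs turned, none of them called where they turned. With trends removed, MRPL30 had 0.034, MRPL35 0.051, MRPL12 -0.12 and PPRC1 -0.075. The other members that turned in that fit are listed with the results on GC content. With the authors' factors, without and with the block, MRPL35 had 0.049 and 0.060, MRPS25 -0.065 and -0.066, and PPRC1 -0.011 and -0.0073. Upper-quartile factors gave -0.027 for MRPS25, -0.0072 for MRPS18C, -0.0035 for PTCD3 and -0.021 for PPRC1. With no filter and with the filter on CPM, MRPS25 had -0.015 and -0.016 and PPRC1 -0.0097 and -0.010. In the block fit without pair 1, MRPL35 had 0.021, MRPS25 -0.029, PPRC1 -0.074 and MT-CO2 0.0059, and without pair 3 MRPS18C had -0.024 and PTCD3 -0.0032. With single libraries left out, the values ran from -0.17 to 0.021 for MRPL30, from -0.13 to 0.015 for MRPL48, from -0.14 to 0.071 for MRPL35, from -0.044 to 0.032 for MRPS25, from -0.0031 to 0.23 for MRPL3, from -0.028 to 0.26 for MRPL12, from -0.067 to 0.13 for MRPS18C, from -0.089 to 0.15 for MRPS36, from -0.041 to 0.11 for PTCD3, from -0.18 to 0.032 for MRRF, from -0.095 to 0.077 for PPRC1, from -0.24 to 0.058 for MT-CO2 and from -0.013 to 0.55 for POLRMT.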
